A study of Mus musculus with 15 samples.

Results

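The last step of the 4TF induction was examined by comparing Stella-eGFP+ PGCLCs collected on day 6 (D6PGCLCs) with those collected on day 4 (D4PGCLCs). The members are the 3 D6PGCLC and 3 D4PGCLC samples, 6 of the 15 samples of the series, and every gene was considered. Of the 55536 genes in the count table, 18090 passed the filter on low counts and were tested. The other 9 samples are naive ESCs, EpiLCs at 48 h and D2PGCLCs, and they entered the same model, where they add to the estimate of the spread between replicates and D2PGCLCs give the step before. PGCLCs are primordial germ cell-like cells made in culture, and EpiLCs are the epiblast-like cells from which they are induced.

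All 6 samples share the same history. They came from engineered male mouse ESCs that carry a Stella-eGFP reporter, the reverse tetracycline transactivator and 4 transgenes (4TF) that doxycycline (Dox) switches on, namely *Nanog*, *Prdm1*, *Prdm14* and *Tfap2c*. The ESCs were first turned into EpiLCs with Activin A and bFGF, and aggregates were then grown in GK15 medium with 2 µg/ml Dox added on day 0. The groups differ by label in the day of collection, and whether Dox was renewed is not given in the sources used here. The transgenic lines were selected as clones, and the sources do not say that the replicates were separate inductions, so p-values measure the spread between these samples, which may be technical. Reads of a transgene and of the matching endogenous gene cannot be separated in these counts, and sorting was on the reporter of *Stella* (*Dppa3*), so these 4 factors and *Dppa3* are no independent marks of germ cell identity here.

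PGCs are the embryonic founders of sperm and eggs. They are set aside from the epiblast by BMP signals that switch on *Prdm1*, *Prdm14* and *Tfap2c*, which silence the somatic program and restore pluripotency factors. Later, as PGCs reach the gonad and lose DNA methylation at germline promoters, they turn on genes such as *Dazl* and *Ddx4*, become able to respond to retinoic acid through *Stra8*, and prepare the piRNA pathway that silences transposons. Expression is given as CPM, the counts of a gene scaled to a common library size with TMM factors, and a gene was called when its log2 fold change of D6PGCLCs over D4PGCLCs was above 1 or below -1 with an adjusted p under 0.05. In bulk RNA, more cells with a transcript and more transcript per cell cannot be told apart.

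The 6 samples held 32146690 to 42725681 counts on genes. D6PGCLC replicate 1 stood apart. It had 18061 genes with at least 1 count against 22710 to 24343 in the 5 others, although its total was 34476646, and it had 1382 genes with 1 to 9 counts against 6837 to 7510. At 10 counts or more it had 16679 genes, within the range of 15769 to 17209 of the others. There were 2293 genes at 0 in this sample only, whose mean count in the other 5 had a median of 6.6, whereas each of the others was alone at 0 for 52 to 141 genes. Among genes with a mean of 5 to 10 counts in D6PGCLC replicates 2 and 3, 58.9% were at 0 in replicate 1 against 14.7% to 15.4% in the D4PGCLC samples, while for 100 counts or more the share was 0.00846%. Each result below was therefore also computed without this sample.

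**Figure D1:**
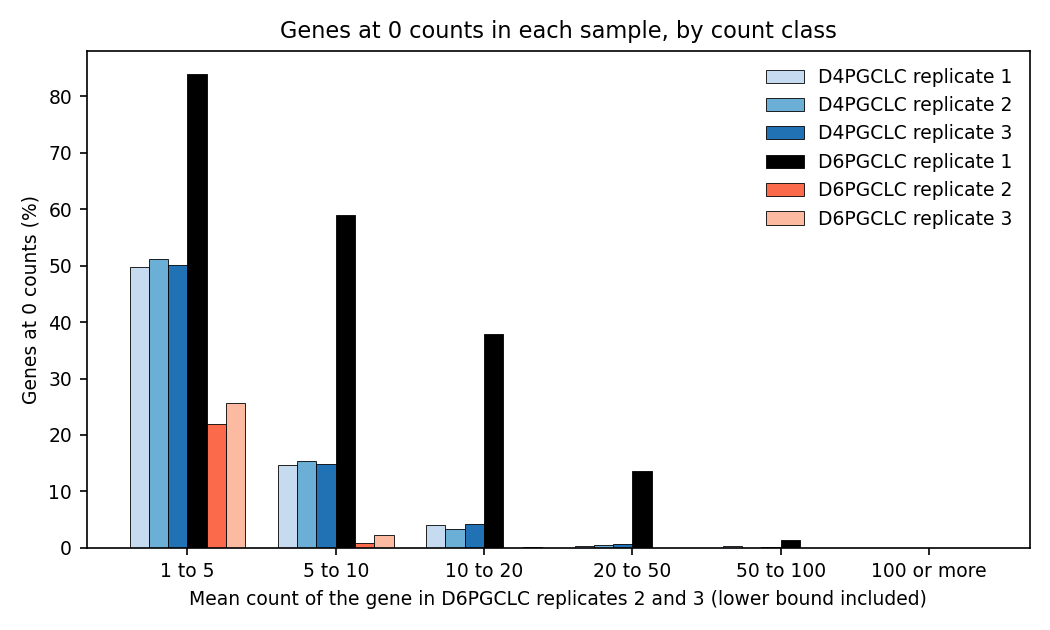
Share of genes at 0 counts in each of the 6 samples (vertical axis, %), with genes classed by their mean count in D6PGCLC replicates 2 and 3 (horizontal axis). D6PGCLC replicate 1 (black bars) has 83.9% of genes at 0 in the lowest class and 13.7% at 20 to 50 counts, where the D4PGCLC samples have under 1%, and the samples are alike at 100 counts or more.

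From day 4 to day 6, 415 genes were higher and 142 lower, which is 2.29% and 0.785% of the genes tested. Without D6PGCLC replicate 1, 313 were higher (1.68% of 18599 tested) and 94 lower (0.505%), of which 266 and 83 were the same genes. Among the genes called lower, 24 had 0 counts in replicate 1, against 3 of those called higher. At an adjusted p under 0.05 with no limit on the fold change, 1090 genes were higher (6.03%) and 1233 lower (6.82%), and without replicate 1 these shares were 3.91% and 3.7%. The counts of list members given below are to be read beside these shares over all genes. The 3 samples of one day did not overlap those of the other for 29.5% of all genes tested, and the median log2 fold change of all genes was -0.01.

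Most called genes were expressed at low levels. Of the 415 higher genes, 195 had a mean of 1 to 5 CPM and 126 less than 1 CPM, and 160 had a mean of at least 100 counts. Of the 142 lower genes, 76 did. Over 100 CPM, 1 gene was called higher (*Dazl*) and 5 lower. The step before it, D4PGCLCs over D2PGCLCs, had 463 genes higher (2.56%) and 68 lower (0.376%). Both comparisons use the D4PGCLC samples, so their values are only set side by side below.

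**Figure D2:**
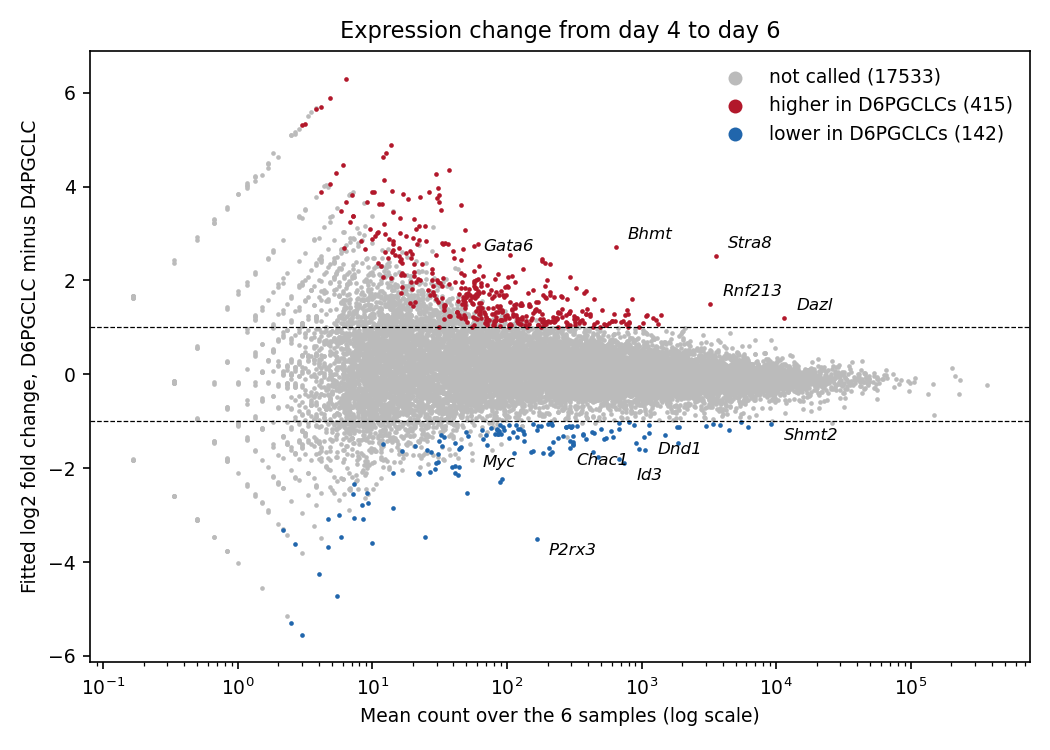
Fitted log2 fold change of D6PGCLCs over D4PGCLCs (vertical axis) against the mean count over the 6 samples (horizontal log axis) for the 18090 genes tested, 1 point per gene. The 415 genes called higher (red) and 142 called lower (blue) lie outside the dashed lines at 1 and -1, mostly at low counts, and *Stra8*, *Dazl*, *Id3* and *Shmt2* are among the called genes with many counts.

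Several genes of the later germ cell program rose. *Stra8*, which encodes a retinoic acid-induced regulator of meiotic entry, stood at 24.6, 24.4 and 34.1 CPM in D4PGCLC replicates 1 to 3 and at 152, 130 and 194 CPM in D6PGCLC replicates 1 to 3. All D6PGCLC samples were above all D4PGCLC samples, and the log2 fold change was 2.52 ± 0.22 (SE, n = 3 per group, adjusted p = 1.68e-06), or 2.55 without D6PGCLC replicate 1. In the step before, its log2 fold change was 1.48. *Dazl*, an RNA-binding protein that licenses germ cells for gametogenesis, was at 211, 136 and 211 CPM on day 4 and at 459, 360 and 464 CPM on day 6. The groups did not overlap, and it rose by 1.20 ± 0.17 on the log2 scale (adjusted p = 0.000169), after 2.25 from day 2 to day 4.

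*Ddx4*, a germ cell RNA helicase, was at 51.6, 40.4 and 47.0 CPM on day 4 and 56.7, 51.7 and 64.2 CPM on day 6. Its samples did not overlap, but the difference of 0.31 did not pass the test (adjusted p = 0.0852). Of 36 tested late PGC and germ cell identity genes, 2 were called higher (*Dazl* and the X-linked *Tex13b*) and 0 lower, and 7 were higher and 2 lower at an adjusted p under 0.05 alone. Among the latter, *Sohlh2*, a transcription factor of early gametogenesis, rose by 0.69, and *Etv5* was lower by -0.54. The median over the list was 0.30.

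Some meiosis genes rose. Of 56 tested, 5 were called higher and 0 lower, with a median log2 fold change of 0.32. Besides *Stra8*, these were the chromosome axis components *Sycp2*, *Sycp2l* and *Sycp3* and the testis bromodomain gene *Brdt*. *Sycp3* was at 5.97, 4.82 and 6.44 CPM on day 4 and 10.6, 12.4 and 15.1 CPM on day 6, which is 1.14 ± 0.20 on the log2 scale (adjusted p = 0.00101). *Brdt* was at 1.97, 1.99 and 2.12 CPM on day 4 and 5.59, 5.74 and 5.41 CPM on day 6, a difference of 1.46 ± 0.35 (adjusted p = 0.0109). Neither gene had overlapping groups. *Sycp2* was not separated, since its day 6 samples at 8.88, 3.06 and 6.86 CPM overlapped day 4 at 2.39, 1.24 and 3.61 CPM, and it was not called without D6PGCLC replicate 1 (adjusted p = 0.146).

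Factors of the piRNA pathway, which silences transposons in germ cells, showed the highest median of these 3 lists, 0.37. Of 32 tested, 3 were called higher and 0 lower, and 11 were higher and 3 lower at an adjusted p under 0.05 alone. *Gtsf1*, a cofactor of PIWI slicing, was at 3.79, 2.65 and 6.93 CPM on day 4 and 9.80, 8.65 and 14.8 CPM on day 6, with no overlap and a log2 fold change of 1.31 ± 0.28 (adjusted p = 0.00575). *Piwil4*, the nuclear PIWI protein of fetal male germ cells, was at 0.572 to 1.17 CPM on day 4 and 1.90 to 2.77 CPM on day 6 (1.45, adjusted p = 0.0114). *Asz1*, a mitochondrial scaffold of piRNA processing, was higher by 1.06, but not without D6PGCLC replicate 1 (adjusted p = 0.0785). *Piwil2* differed by 0.17 and did not pass the test.

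**Figure D3:**
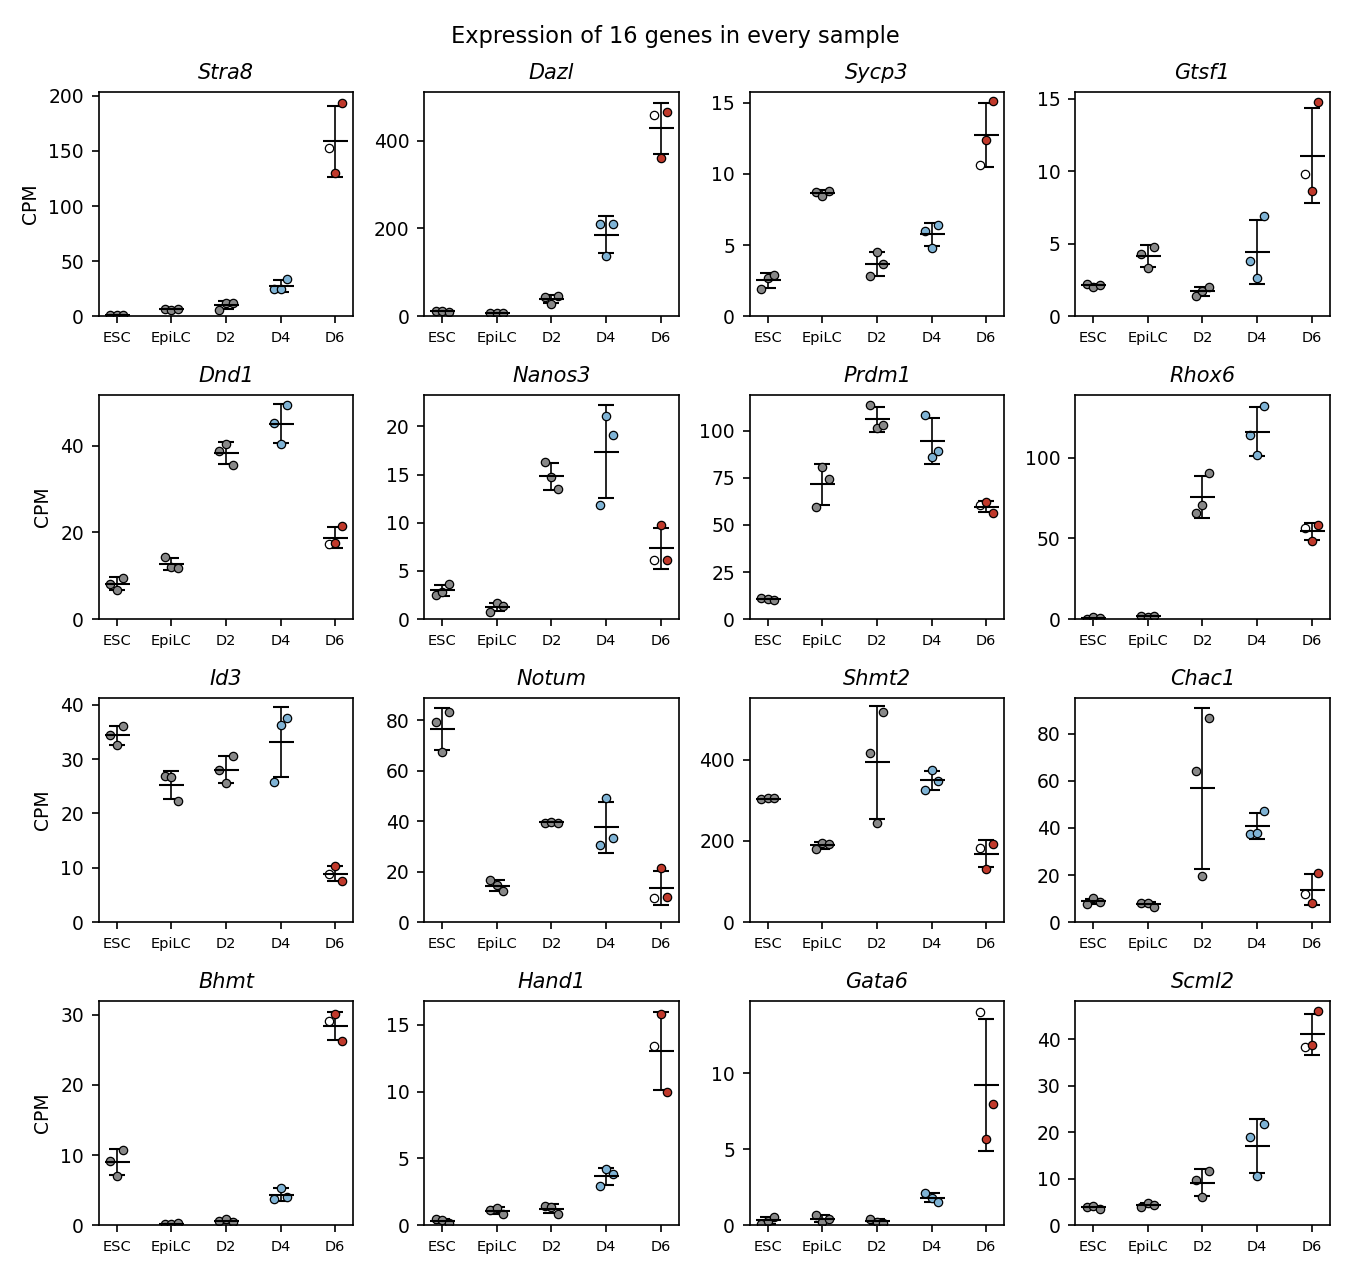
Expression (vertical axis, CPM from 0) of 16 genes in each sample of ESCs, EpiLCs and PGCLCs on days 2 (D2), 4 (D4) and 6 (D6). Points are samples, open points mark D6PGCLC replicate 1, and bars give the mean and SD of 3 replicates. *Stra8* lies between 130 and 194 CPM on day 6 and below 35 CPM in all other samples, while *Dnd1*, *Nanos3*, *Rhox6* and *Id3* fall back from day 4 to day 6.

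Promoters of germline genes are known targets of the repressor PRC1.6, whose subunits MGA and MAX bind the E-box CACGTG and E2F6 binds GCGGGAA. The RefSeq promoters (GRCm38.p6, 250 bases before to 50 after the start) were searched for CACGTG and for GCGGGAA or its reverse complement TTCCCGC, where a palindromic E-box reads the same on both strands. Of the 18090 genes tested, 12251 had a promoter in this set. CACGTG was found in 9.91% of these promoters, in 8.3% of 265 promoters of genes called higher and in 3.0% of 100 of genes called lower. In the 91 promoters of the late germ cell, meiosis and piRNA lists it was found in 27.5%, and in 2 of the 10 whose genes were called higher. The E2F6 letters were in 8.28% of all promoters, 7.17% of the higher set, 4.0% of the lower set and 17.6% of the germline lists. The median observed to expected CpG ratio was 0.736 over all promoters, 0.579 for genes called higher, 0.459 for genes called lower and 0.694 for the germline lists.

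The 3 promoters below show both cases among the meiosis genes that rose. *Sycp3* (chr10:88459337-88459636, plus strand) holds CACGTG at 2 positions and GCGGGAA once, *Brdt* (chr5:107330944-107331243, plus strand) holds CACGTG once, and *Stra8* (chr6:34920698-34920997, plus strand) holds neither. The RefSeq start used for *Stra8* lies 785 bases downstream of its GENCODE M21 gene start, against distances of 18 bases for *Sycp3* and 35 for *Brdt*. The sequence before that M21 start of *Stra8* was not searched. Capitals mark the matches, and all 3 sequences run 5′ to 3′.
Sycp3: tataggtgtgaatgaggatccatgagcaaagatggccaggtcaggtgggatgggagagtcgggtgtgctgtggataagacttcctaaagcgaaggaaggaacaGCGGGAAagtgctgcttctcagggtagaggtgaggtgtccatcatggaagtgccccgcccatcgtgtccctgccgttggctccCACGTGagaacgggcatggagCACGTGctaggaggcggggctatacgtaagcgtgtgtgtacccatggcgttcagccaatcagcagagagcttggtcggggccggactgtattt
Brdt: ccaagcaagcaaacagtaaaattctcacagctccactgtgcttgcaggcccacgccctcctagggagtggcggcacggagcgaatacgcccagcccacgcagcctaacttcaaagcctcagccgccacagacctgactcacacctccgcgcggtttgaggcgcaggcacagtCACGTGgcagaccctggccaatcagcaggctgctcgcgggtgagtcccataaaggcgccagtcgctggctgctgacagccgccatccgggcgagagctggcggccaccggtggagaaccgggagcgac
Stra8: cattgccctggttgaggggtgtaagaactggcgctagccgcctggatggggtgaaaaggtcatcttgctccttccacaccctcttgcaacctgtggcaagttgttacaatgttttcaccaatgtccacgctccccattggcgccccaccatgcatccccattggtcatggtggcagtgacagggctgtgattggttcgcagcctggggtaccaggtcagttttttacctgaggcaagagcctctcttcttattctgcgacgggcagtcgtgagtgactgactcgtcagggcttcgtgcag

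Some genes of PGC specification fell. Of 28 tested early PGC genes, 2 were called lower and 1 higher, and at an adjusted p under 0.05 alone 14 were lower and 3 higher, with a median log2 fold change of -0.29. Without D6PGCLC replicate 1 these counts were 9 and 1. Over all genes tested, 6.82% were lower and 6.03% higher at an adjusted p alone, and 3.7% and 3.91% without that sample. *Dnd1*, an RNA-binding protein that PGCs need to survive, was at 45.3, 40.4 and 49.4 CPM on day 4 and 17.2, 17.6 and 21.6 CPM on day 6. No day 6 sample reached the day 4 range, and the log2 fold change was -1.26 ± 0.13 (adjusted p = 1.43e-05). *Nanos3*, its partner in repressing translation, was at 17.4 ± 4.83 CPM (SD, n = 3) with a lowest value of 11.9 on day 4, and at 6.09, 9.75 and 6.15 CPM on day 6 (-1.24 ± 0.24, adjusted p = 0.00246), also with no overlap. The gene called higher was *Fut4*, a fucosyltransferase gene, at 0.242 to 0.662 CPM on day 4 and 1.56 to 2.36 CPM on day 6.

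Smaller decreases passed the adjusted p but not the limit on the fold change. The interferon-induced membrane genes *Ifitm1* and *Ifitm3*, which mark nascent PGCs, were lower by -0.81 and -0.71, and the pluripotency RNA-binding gene *Lin28a* by -0.64. The threonine dehydrogenase gene *Tdh* was at 319, 342 and 377 CPM on day 4 and 169, 170 and 180 CPM on day 6 (adjusted p = 7.54e-07), just short of the limit on the fold change. Total reads of *Prdm1*, transgene and endogenous together, were at 108, 85.8 and 89.3 CPM on day 4 and 60.4, 62.0 and 56.4 CPM on day 6 (-0.67, adjusted p = 0.000578). For *Tfap2c* the difference was -0.32 (adjusted p = 0.00814), and for *Prdm14* -0.33 (adjusted p = 0.044, and 0.0785 without D6PGCLC replicate 1). *Nanog* differed by -0.06, *Dppa3* by 0.08 and the receptor gene *Kit* by -0.08, with overlapping samples and adjusted p of 0.754, 0.66 and 0.691.

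The Rhox cluster is a family of reproductive homeobox genes on the X chromosome. Of 18 tested members, 2 were called lower and 2 higher. *Rhox6* was at 114, 102 and 132 CPM on day 4 and 56.8, 48.3 and 58.1 CPM on day 6 (-1.10 ± 0.17, adjusted p = 0.00036), and *Rhox9*, in the same cluster, at 122, 109 and 158 CPM and 63.7, 56.2 and 66.5 CPM (-1.06 ± 0.15, adjusted p = 0.000226). From day 2 to day 4 their log2 fold changes were 0.62 (adjusted p = 0.0201) and 0.46 (adjusted p = 0.0574). *Rhox13* and *Rhox2b*, at under 10 CPM in every sample of both days, were higher by 1.48 and 1.19. *Rhox13* was called in 5 of 11 alternatives and was at 0.84 without D6PGCLC replicate 3, its highest sample, and *Rhox2b* was called in 8. *Rhox2b* has near-identical copies, so its value is uncertain. By chromosome, the X had the highest share of genes called higher, 4.09% of 684 tested genes, and chromosome 19 the lowest, 1.02% of 586.

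Among 45 polycomb genes, 2 were called higher and 1 lower (2.29% and 0.785% over all genes tested). *Phf19*, which recruits PRC2, was at 209, 202 and 206 CPM on day 4 and 107, 93.7 and 106 CPM on day 6, a log2 fold change of -1.01 ± 0.09 (adjusted p = 3.59e-06), close enough to the limit on the fold change that DESeq2 did not call it. *Scml2*, an X-linked germline polycomb factor, was at 10.6 to 21.8 CPM on day 4 and 38.4 to 46.1 CPM on day 6 (1.26 ± 0.22, adjusted p = 0.00121). *Bcorl1*, also X-linked, was at 11.3 to 12.9 CPM and then at 25.9 to 26.9 CPM (1.15 ± 0.12, adjusted p = 1.37e-05). The groups did not overlap for any of these 3 genes. No DNA methylation writer or eraser (28 tested), H3K9 methylation gene (27) or imprinted gene (57) was called by edgeR's test or by DESeq2, while 6, 10 and 13 of them had an unadjusted p under 0.05. Over all genes tested, 27.6% had such an unadjusted p. At an adjusted p alone, *Tet3*, an oxidase of methylated cytosine, was higher by 0.61, and the imprinted *H19* and *Plagl1* by 0.61 and 0.89. Of 29 naive pluripotency genes, 3 were called higher, all *Zscan4* copies, and 0 lower. Of 27 formative and primed genes, 4 were called higher and 0 lower, but 1 higher without D6PGCLC replicate 1. The SWI/SNF and NCoR list had 0 of 44 called and a median of -0.12, with 22 at an unadjusted p under 0.05 (27.6% over all genes) and 1 called higher by DESeq2.

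Genes of the amino acid and ER stress response formed the list with the most negative median, -0.51 over 40 tested. The amino acid part of this response is driven by the transcription factor ATF4. It covers serine and one-carbon synthesis, amino acid transport and stress regulators. The list also holds ER genes such as *Calr*, so its values do not describe ATF4 targets alone. Of the list, 6 were called lower and 0 higher, 17 were lower at an adjusted p alone, and 25 had no overlap between days. Over all genes tested, 0.785% were called lower, 6.82% were lower at an adjusted p alone and 29.5% had no overlap. The summed expression of the list was 8812 to 9158 CPM on day 4 and 5881 to 6880 CPM on day 6. Without *Calr*, its most abundant member, it was 7670 to 8088 CPM and then 4782 to 5985 CPM. Without D6PGCLC replicate 1, 2 members were called lower and 8 passed the adjusted p alone, with a median of -0.55.

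The members called both with and without that sample were *Chac1* and *Shmt2*. *Chac1*, a glutathione-degrading ATF4 target, was at 37.6, 37.6 and 47.2 CPM on day 4 and 12.1, 8.03 and 20.9 CPM on day 6 (-1.59 ± 0.36, adjusted p = 0.00839). *Shmt2*, the mitochondrial enzyme that feeds serine into one-carbon metabolism, was at 325, 374 and 348 CPM and then 182, 131 and 193 CPM (-1.05 ± 0.18, adjusted p = 0.00113). The day 6 samples of both genes were all below day 4, and without D6PGCLC replicate 2 *Shmt2* was at -0.90, inside the limit on the fold change. *Pck2*, *Aldh1l2*, *Slc7a11* and *Atf3* were called lower (-1.12, -1.33, -2.22 and -1.68), but not without D6PGCLC replicate 1, where their adjusted p were 0.0572, 0.0951, 0.105 and 0.0692. *Atf4* itself was at 252, 248 and 309 CPM and then 164, 131 and 201 CPM, a difference of -0.71 ± 0.18 (adjusted p = 0.016, and 0.049 without that sample). The asparagine synthetase gene *Asns* was lower by -0.69, the serine enzyme *Psat1* by -0.73 and the amino acid transporters *Slc7a5* and *Slc7a3* by -0.77 and -0.93. Not every member followed, since *Ddit3*, which encodes CHOP, differed by 0.47 and *Trib3* by -0.48 with overlapping samples.

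Other metabolic lists moved less. Over all genes tested, 6.82% were lower and 6.03% higher at an adjusted p alone, and 3.7% and 3.91% without D6PGCLC replicate 1. Cholesterol synthesis genes had a median of -0.28, with 11 of 34 lower at an adjusted p alone and 0 higher, and 7 lower without D6PGCLC replicate 1. *Sqle*, the squalene epoxidase, was at 131, 133 and 130 CPM on day 4 and 76.3, 77.0 and 76.1 CPM on day 6, a difference of -0.78 ± 0.06 (adjusted p = 8.91e-07) under the limit on the fold change. Glycolysis and hypoxia genes had a median of -0.22 with 6 of 50 lower and 1 higher by the same rule, and 2 lower and 0 higher without D6PGCLC replicate 1. None of the 75 nuclear oxidative phosphorylation subunits passed the adjusted p alone in edgeR's test, 3 had an unadjusted p under 0.05 (27.6% over all genes), DESeq2 called 0, and their median was -0.08. The S phase genes had a median of -0.16 with 13 of 46 lower, and 3 without D6PGCLC replicate 1. Of 47 mitosis genes, 3 were lower, near the share over all genes, and 0 without that sample. *Cdkn1a*, the p21 cell cycle inhibitor, was higher by 0.68 (adjusted p = 0.00297), in a list of 32 p53 targets and cell cycle inhibitors of which 1 was called higher and 0 without D6PGCLC replicate 1. The 13 mitochondrially encoded genes summed to 16920 to 20040 CPM on day 4 and 13640 to 14650 CPM on day 6. At an adjusted p alone 3 were lower, but 0 without D6PGCLC replicate 1. At an unadjusted p under 0.05, 8 were lower and 0 higher (27.6% of all genes in either direction). Their levels were uneven, with day 4 means of 7107 CPM for *mt-Co1* but 11.95 for *mt-Co2* and 0.229 for *mt-Atp8*. Of 20 heat shock genes edgeR's test called 0 and DESeq2 1, and 9 had an unadjusted p under 0.05 (27.6% over all genes).

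**Figure D4:**
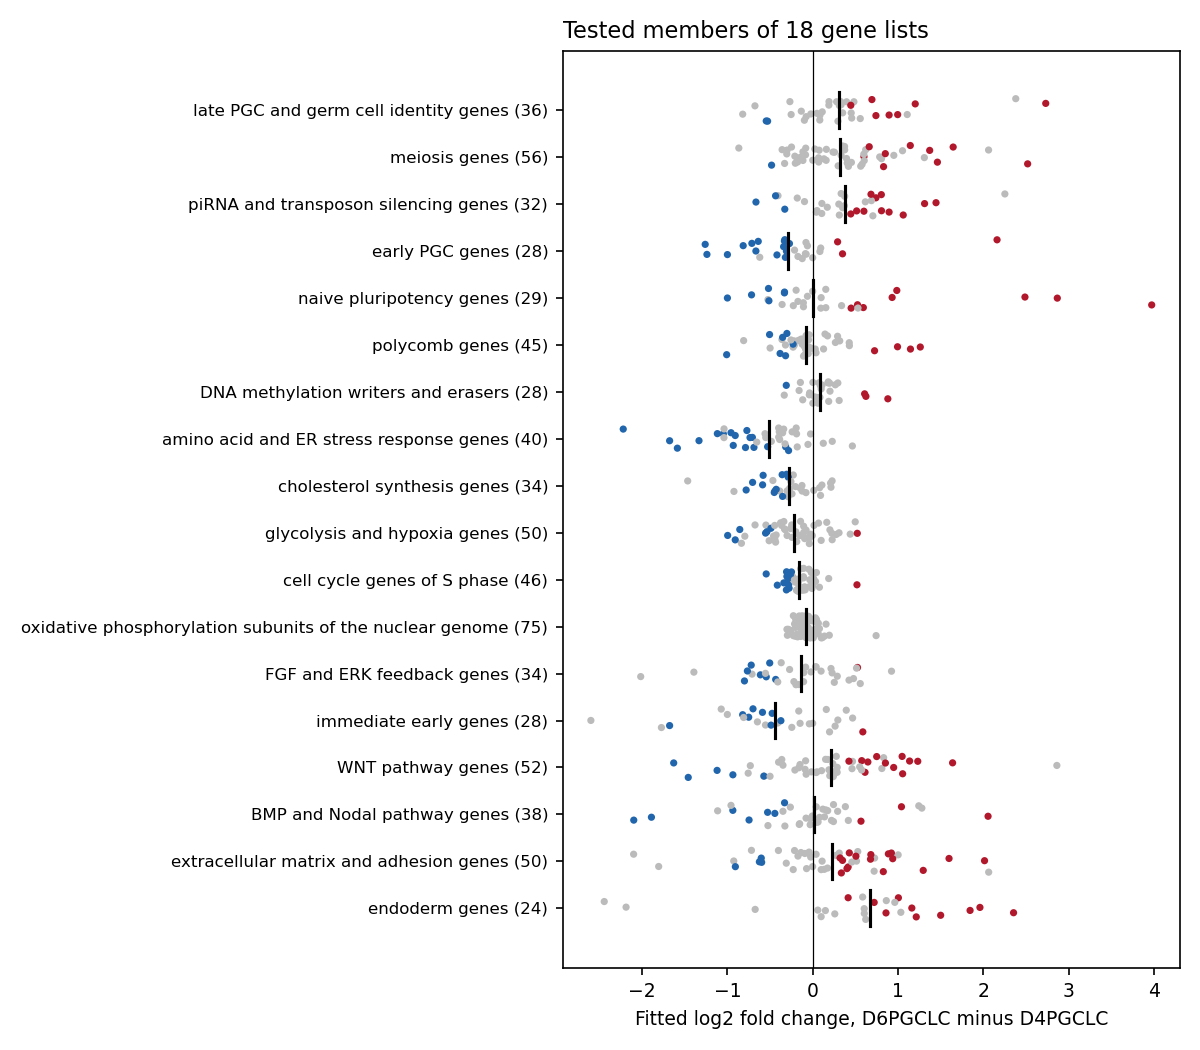
Fitted log2 fold changes of D6PGCLCs over D4PGCLCs (horizontal axis) for the tested members of 18 gene lists, with the number tested in brackets. Points are genes, red and blue mark those higher or lower at an adjusted p under 0.05, and black bars are medians, which range from -0.51 for the amino acid and ER stress response to 0.67 for endoderm genes. Points were spread vertically for visibility.

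Among the genes that met the naming rule (a mean of at least 100 counts, no overlap, and called with and without D6PGCLC replicate 1), the largest rise was that of *Bhmt*, which encodes betaine-homocysteine methyltransferase, an enzyme best known from liver. It was at 3.73, 5.36 and 4.01 CPM on day 4 and 29.1, 30.1 and 26.2 CPM on day 6. The day 6 samples were far above day 4, by 2.70 ± 0.22 on the log2 scale (adjusted p = 1.07e-06), after 2.85 from day 2 to day 4. *Dmgdh*, the dimethylglycine dehydrogenase that acts after it in choline breakdown, rose by 2.38 ± 0.28 (adjusted p = 4.78e-05), and *Bhmt2*, the paralog of *Bhmt*, by 1.96 ± 0.42 (adjusted p = 0.00547). All 3 were already expressed in naive ESCs, with means of 8.96 CPM for *Bhmt*, 9.72 for *Bhmt2* and 27.3 for *Dmgdh*. Their day 6 means were 28.5, 4.76 and 8.30 CPM, so *Bhmt2* and *Dmgdh* stayed below their ESC means. *Chdh*, the choline dehydrogenase that makes betaine upstream of *Bhmt*, was at 16.1, 11.7 and 9.96 CPM and fell to 3.91, 4.47 and 4.31 CPM (-1.57 ± 0.26, adjusted p = 0.000856). All 4 genes were also called without D6PGCLC replicate 1. The tested gene next to *Chdh*, 127 bases away, was also called lower.

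The 3 genes that rose lie next to each other on chromosome 13 (GENCODE M21, mm10). *Bhmt* (chr13:93616675-93637961, minus strand), *Bhmt2* (chr13:93655720-93674302, minus strand) and *Dmgdh* (chr13:93674433-93752833, plus strand) are followed by *Arsb* (chr13:93771630-93943016), a lysosomal sulfatase, which was chosen for mention after its value was seen and was higher by 1.39 (adjusted p = 0.00661). On the other side, the next tested protein-coding gene *Jmy*, also picked for its position, differed by 0.40 (adjusted p = 0.0141) and was not called. *Bhmt2* and *Dmgdh* are transcribed away from each other, and 131 bases lie between their gene bodies in M21. The promoter window of *Dmgdh*, which overlaps that of *Bhmt2*, is shown because the genes on either side both rose. It has 68.0% G and C with a CpG ratio of 0.753, none of the searched motifs, and is given on the plus strand (chr13:93674186-93674485, GRCm38.p6).
Dmgdh: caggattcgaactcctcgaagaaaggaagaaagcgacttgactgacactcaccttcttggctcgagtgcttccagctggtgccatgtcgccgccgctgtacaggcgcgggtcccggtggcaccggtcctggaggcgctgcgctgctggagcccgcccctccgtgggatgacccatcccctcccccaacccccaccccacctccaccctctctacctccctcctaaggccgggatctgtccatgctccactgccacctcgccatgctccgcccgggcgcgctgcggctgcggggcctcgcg

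Another run of adjacent genes contains *Col4a1* and *Col4a2*, the basement membrane collagen IV chains, which face away from each other on chromosome 8. The runs around *Bhmt* and *Col4a1* were picked from several. Other adjacent tested genes called in the same direction include *Piwil4* and *Fut4*, and *Brdt* and *Cdx1* each had such a neighbor. *Col4a1* was at 12.4, 14.8 and 8.82 CPM on day 4 and 27.7, 34.2 and 26.6 CPM on day 6 (1.30 ± 0.16, adjusted p = 6.39e-05), and *Col4a2* at 5.97, 5.96 and 5.24 CPM and then 17.3, 18.6 and 16.0 CPM (1.60 ± 0.19, adjusted p = 3.8e-05). Their neighbor *Rab20*, named after its value was seen, was higher by 1.69. *Col4a1* and *Col4a2* overlap by a few bases at their starts, and whether the counting used strand is not given. Of 50 extracellular matrix and adhesion genes, 3 were called higher and 0 lower, and 16 were higher and 4 lower at an adjusted p alone, with a median of 0.22. Without D6PGCLC replicate 1, 10 were higher and 3 lower by the latter rule. Among the latter, the laminin *Lama5* and the proteoglycan *Hspg2* were higher by 0.68 each and the basement membrane linker *Nid1* by 0.89.

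**Figure D5:**
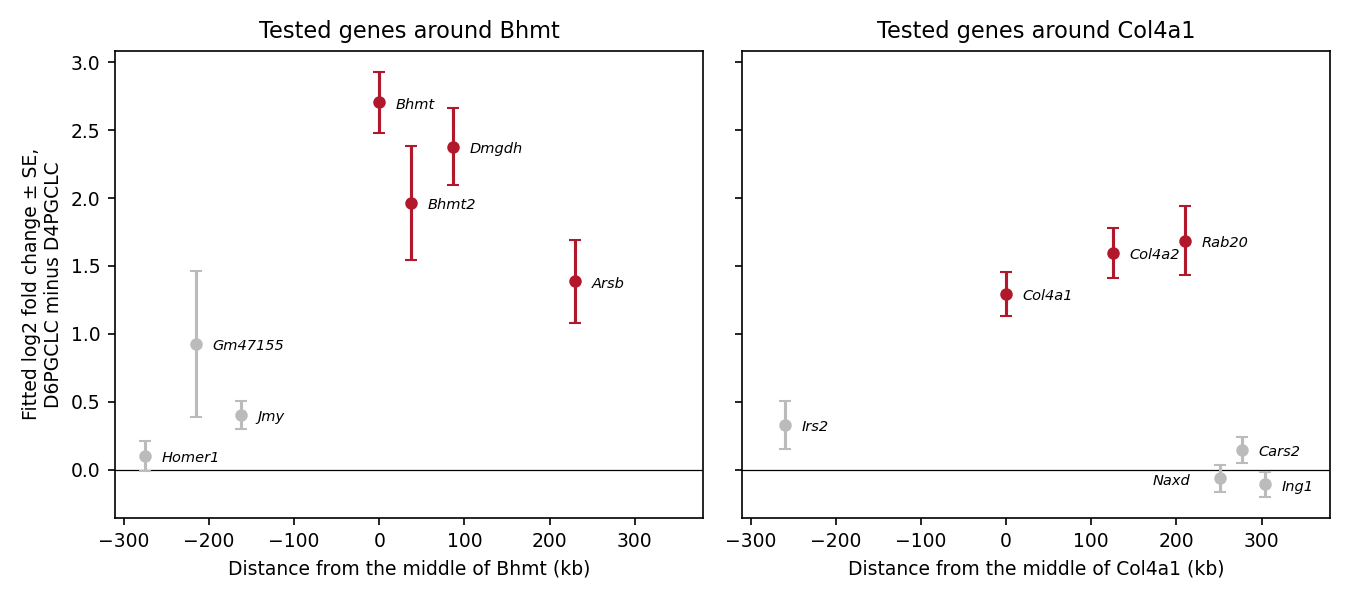
Fitted log2 fold change of D6PGCLCs over D4PGCLCs with its SE (vertical axis) for the tested genes around *Bhmt* (left) and *Col4a1* (right), placed by the distance between gene midpoints (horizontal axis, kb). Red points are called genes, which form a run of 4 around *Bhmt* (1.39 to 2.70) and of 3 around *Col4a1* (1.30 to 1.69), and gray points are genes not called.

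Readouts of signaling pathways differed. *Id3*, a direct target of BMP signaling, was at 25.8, 36.3 and 37.5 CPM on day 4 and 8.90, 10.3 and 7.62 CPM on day 6, with no overlap and a log2 fold change of -1.89 ± 0.15 (adjusted p = 8.91e-07). The related *Id1* and *Id2* differed by -0.15 and -0.35 and did not pass the test. Of 38 BMP and Nodal pathway genes, 2 were called lower and 2 higher, and without D6PGCLC replicate 1 these were *Id3* and *Smad9* alone. *Notum*, a secreted WNT antagonist that WNT induces, was at 30.6, 49.3 and 33.2 CPM and then 9.64, 21.5 and 9.80 CPM (-1.46 ± 0.24, adjusted p = 0.000656). *Myc* was at 5.67, 9.46 and 4.84 CPM and then 0.919, 3.98 and 1.39 CPM (-1.63 ± 0.34, adjusted p = 0.00426), and the ligand gene *Wnt3a* was lower by -1.12. The WNT target *Axin2* differed by 0.46 with overlapping samples and did not pass.

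Of the 52 WNT pathway genes as a whole, 5 were called higher and 3 lower, and 2 and 3 without D6PGCLC replicate 1. Those called higher were at under 7 CPM in every sample of both days, among them the antagonist *Sfrp2* (1.23, adjusted p = 0.00863). No FGF and ERK feedback gene of 34 was called, but 7 were lower and 1 higher at an adjusted p alone, and the 7 were also lower without that sample. *Dusp6*, a phosphatase induced by ERK, was at 61.0, 60.3 and 56.6 CPM on day 4 and 35.4, 32.9 and 34.0 CPM on day 6 (-0.80 ± 0.09, adjusted p = 3.35e-05), and the ERK-dependent *Etv4* and *Spry2* were lower by -0.61 and -0.43. Immediate early genes had a median of -0.44 with 8 of 28 lower and 1 higher, including *Nr4a1* (-0.82) and *Junb* (-0.75). Of 23 retinoic acid genes, *Stra8*, *Rbp4* and *Cdx1* were called higher, and 2 of the list without D6PGCLC replicate 1, where *Cdx1* had an adjusted p of 0.0895. The *Cdx1* samples overlapped between days, and its call was kept in 6 of 11 alternatives, that of *Rbp4* in 8. *Cyp26a1*, the enzyme that degrades retinoic acid, differed by 0.43 with overlapping samples.

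Markers of other cell types that the aggregates or the sorting gate could hold were checked. Endoderm genes had a median of 0.67, and 7 of 24 tested were called higher and 0 lower, 6 without D6PGCLC replicate 1. *Gata6*, a regulator of primitive endoderm, was at 2.12, 1.78 and 1.52 CPM on day 4 and 14.1, 5.66 and 7.99 CPM on day 6 (2.35 ± 0.41, adjusted p = 0.00124). *Gata4* and *Foxa1* reached at most 2.55 CPM, *Hnf4a* was at 1.81 CPM in D6PGCLC replicate 1 and at most 0.396 CPM in the others, and the defining markers *Foxa2* and *Sox17* did not pass the test. The summed level of the endoderm list was 861 to 1112 CPM on day 4 and 954 to 1253 CPM on day 6, ranges that overlap. Most of this sum was *Apoe*, a lipid carrier gene, and the other 23 members summed to 236 to 248 CPM and then to 299 to 320 CPM. Whether endoderm-like cells contributed was not tested.

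*Hand1*, a trophoblast and mesoderm factor, was at 2.94, 4.22 and 3.81 CPM and then 13.4, 15.8 and 9.97 CPM (1.84 ± 0.27, adjusted p = 0.000279). The placental homeobox gene *Esx1* rose by 1.07, while the trophoblast genes *Cdx2* and *Elf5* stayed at no more than 1.21 CPM and did not pass. *Eomes* was lower by -0.74. The mesoderm marker *T* had at most 0.0903 CPM in any sample of either day. Of the trophoblast list, 3 of 21 were called higher and 0 lower. It summed to 226 to 390 CPM on day 4 and 267 to 458 CPM on day 6, and without its most abundant member *Peg10* to 133 to 155 CPM and then 161 to 187 CPM. Of the mesoderm and blood list, 3 of 20 were called higher and 0 lower. It summed to 423 to 476 CPM and then 397 to 424 CPM, but nearly all of this was *Pecam1*, an endothelial adhesion gene that PGCs also express, and the other 19 members summed to 18.6 to 25.7 CPM and then to 30.8 to 40.0 CPM. Among 21 neural genes, 3 were called higher and 1 lower, the latter being *Tubb3*, a neuronal tubulin, at 68.7, 86.1 and 76.0 CPM and then 21.6, 28.7 and 33.6 CPM (-1.46 ± 0.15, adjusted p = 1.08e-05). Those called higher were *Nes*, an intermediate filament gene of neural progenitors, the Notch ligand gene *Dll1* and the forebrain homeobox gene *Hesx1* (1.29 and 1.51). *Nes* was at 17.2, 18.4 and 15.4 CPM on day 4 and 35.1, 31.8 and 35.6 CPM on day 6 (1.01 ± 0.10, adjusted p = 1.02e-05), and at 0.99 without D6PGCLC replicate 1. Naive ESC means were above day 6 means for *Nes* (78.7 against 34.2 CPM), *Tubb3* (81.7 against 28.0) and *Hesx1* (5.25 against 2.20). For *Dll1* the naive ESC mean was not (0.108 against 3.05 CPM), but its EpiLC mean was above day 6, at 75.9 CPM. The neural list summed to 150 to 184 CPM and then 129 to 149 CPM, but without *Tubb3* to 80.8 to 97.8 CPM and then 107 to 120 CPM. The fibroblast collagens *Col1a1* and *Col1a2* were at no more than 1.11 CPM on both days, although the fibroblast list summed to 32.7 to 40.3 CPM and then to at least 49.1 CPM, with 1 of 15 called higher and 1 lower. The part of any of these cell types in the results was not tested. Hox genes had a median of 1.42 over 18 tested, at a summed level of 9.3 to 10.3 CPM on day 4 and 16.5 to 19.4 CPM on day 6, with 3 called higher and 2 without D6PGCLC replicate 1.

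Some genes of the cleavage stage were higher, at low levels. Of 20 tested two-cell stage genes, 8 were called higher and 0 lower, and 8 higher without D6PGCLC replicate 1. *Zscan4f* was at 0, 0.151 and 0.115 CPM on day 4 and 1.55, 1.72 and 1.08 CPM on day 6, and *Zscan4c* at 0.172 to 0.482 CPM and then 1.10 to 2.33 CPM. Day 6 was above day 4 in every sample of both genes. Their EpiLC means were above day 6, at 6.79 CPM against 1.45 for *Zscan4f* and 9.26 against 1.73 for *Zscan4c*. Their naive ESC means were 0.545 and 0.865 CPM, below day 6. These genes are near-identical copies in clusters, so their single values are uncertain, and reads of one may be counted on another. The list summed to 251 to 279 CPM on day 4 and 198 to 272 CPM on day 6, but nearly all of this was the translation factor gene *Eif1a*, and the other 19 members summed to 12.2 to 17.9 CPM and then to 27.2 to 41.4 CPM.

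Other genes with the largest or most abundant changes follow the naming rule given with the methods. *P2rx3*, an ATP-gated ion channel, had the largest decrease among them, at 9.85, 9.37 and 7.59 CPM on day 4 and 0.210, 0.902 and 1.25 CPM on day 6 (-3.50 ± 0.53, adjusted p = 0.000356), and -3.06 without D6PGCLC replicate 1. *Slc40a1*, the iron exporter ferroportin, was at 24.3 to 34.2 CPM and then at 7.81 to 9.35 CPM (-1.81, adjusted p = 1.54e-05). *Hmces*, which protects abasic sites in DNA, was at 160, 181 and 182 CPM and then 65.4, 81.3 and 82.9 CPM (-1.19 ± 0.10, adjusted p = 8.91e-07). The day 6 values lay below those of day 4 in every case.

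Among the abundant genes that rose, *Rnf213*, a large ubiquitin ligase, was at 57.9, 48.0 and 27.9 CPM and then 136, 119 and 122 CPM (1.49 ± 0.21, adjusted p = 0.000169). The cell surface gene *App* rose by 1.16 and the testis tubulin *Tuba3b* by 1.61. *Hal*, which breaks down histidine, rose by 1.89, *Fbp2*, a gluconeogenic phosphatase, by 2.02, and *Casp8*, the initiator caspase of death receptors, by 2.07 (adjusted p = 0.00319). The day 6 values of these genes did not overlap day 4. By the same rule the noncoding genes with the largest rises were *Gm45598*, *Gm43549*, *Gm49089*, *Olfr1372-ps1* and *Gm53*, higher by 2.54, 2.45, 2.24, 2.09 and 1.73, and no noncoding gene that fell met it. *Gm45598* lies between *Zscan4e* and *Zscan4f*, so its value may share the uncertainty given for those copies.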

How the data were processed

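Per the submitters' processing notes, reads were handled with Trim Galore, FastQC and STAR on mm10, with no versions given. RNA was purified with TRIzol from sorted cells, and libraries were made with the NEBNext Ultra II Directional kit. The values deposited by the authors are whole-number read counts for each ENSEMBL identifier, without scaling. The counting tool, its strand setting and the handling of reads matching several genes are not given in the sources used here. All 55536 identifiers matched GENCODE M21, the source of symbols and coordinates.

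Counts were tested with edgeR 4.0.16 in R 4.3.3 by its quasi-likelihood test, with TMM scaling, filterByExpr (minimum of 10 counts), 1 coefficient per group for all 15 samples and Benjamini-Hochberg adjustment over 18090 genes. This differs from the study's DESeq2, which was an alternative (version 1.42.0), as were its size factors within edgeR, the table without a filter, a block for replicate number, a fit of only the 6 samples, calls without a fold-change cutoff, and each sample left out in turn. The script was tested on simulated data. Same-numbered day 4 and day 6 samples deviated together for replicates 2 and 3 but not for replicate 1. Numbers were not used as pairs in the main fit, so its p-values ignore any such pairing. Totals were 32146690 to 42725681 counts per sample, and a limit of 3 counts is the floor for detection.

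The members and the 36 gene lists were chosen with earlier results of these data known. Genes named outside lists were called, with a mean of at least 100 counts, no overlap and the same call without D6PGCLC replicate 1, and among these the 15 largest changes each way of protein-coding genes, the 10 most abundant each way and the 5 largest each way of noncoding genes. Lists were described by counts and medians, with no test. The results of the JAK-STAT list and of the interferon and MHC class I list are not reported here.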

Additional observations from a re-analysis of the deposited data

How the results depend on the processing

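The number of genes called higher ran from 313 to 448 over the fits that left out 1 of the 6 samples, and that of genes called lower from 94 to 218. For the lower genes the count was 94 without D6PGCLC replicate 1 and 218 without D6PGCLC replicate 2, against 142 in all samples, and 78 when only the 6 samples compared were fitted. The causes were not tested, although the smaller fits have fewer samples to estimate the spread. With no fold-change cutoff, 1090 genes were higher and 1233 lower. DESeq2 called 563 and 174, DESeq2's size factors in edgeR 442 and 135, and leaving out the filter gave 498 and 190. Higher genes made up 74.5% of calls, and 67.3% without D6PGCLC replicate 2.

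A replicate block gave 413 higher and 153 lower. The correlations of deviations of same-numbered day 4 and day 6 samples were 0.019, 0.358 and 0.350 for replicates 1, 2 and 3. D4PGCLC replicate 2 with D6PGCLC replicate 3 gave -0.401, and D4PGCLC replicate 3 with D6PGCLC replicate 2 gave -0.288. Replicates 2 and 3 thus matched by number. D4PGCLC replicate 1 correlated best with D6PGCLC replicate 3 (0.044), so the numbers were not taken as pairs in the main fit.

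Over the 141 genes named in the text or chosen by the naming rule, 1443 of 1547 values from the alternatives stayed on the same side of the call with the same sign, 87 lost the call, 5 gained it and 12 changed sign. The sign changes were all of uncalled genes when 1 sample was left out: *Cdx2* ranged from -0.32 to 0.52, *Col1a1* from -0.18 to 0.40, *Ddit3* from -0.10 to 0.99, *Id1* from -0.45 to 0.086, *Nanog* from -0.18 to 0.027, *Peg10* from -0.38 to 0.61 and *T* from -0.94 to 2.89. Calls that at least 1 sample decided include *Shmt2* (lost without D4PGCLC replicate 2 or D6PGCLC replicate 2), *Sycp3* (without D6PGCLC replicate 3), *Rhox6* and *Rhox9* (without D4PGCLC replicate 3), *Piwil4* (without D4PGCLC replicate 2), *Esx1* (without D6PGCLC replicate 1) and *Fut4* (without D4PGCLC replicate 1). *Phf19* was not called by DESeq2, with its size factors, in the 6 samples alone or without D6PGCLC replicate 2.

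Depth limits genes under about 100 counts, and D6PGCLC replicate 1 adds error there: between it and the other D6PGCLC samples, log2(CPM + 1) differed with an SD of 0.485 to 0.495 over 4823 genes with a mean of 10 to 99 counts, against 0.322 between the other 2, and at 100 counts or more with an SD of 0.294 to 0.296 against 0.260.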
